A study of Rattus norvegicus with 16 samples.

Results

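Aminoacyl-tRNA synthetases are the enzymes that join each amino acid to its transfer RNA. The genes described here were chosen by name: every gene symbol of the deposited table made of 1 capital letter and ars or ars2, together with Eprs, Farsa and Farsb. The rule found 35 of the 17147 genes in the table, 20 for cytosolic enzymes and 15, ending in 2, for mitochondrial enzymes. Gars and Kars, which each make the enzyme of both compartments, are counted among the cytosolic genes throughout. All 35 passed the filter on low counts, as did 11658 genes in all. The mitochondrial isoleucine and methionine enzymes, Iars2 and Mars2, are not analysed here, and Tarsl2 lies outside the naming rule and is described with the partner genes. RefSeq gives Vars2 also as an older name of the cytosolic valine gene; the table has separate entries for Vars and Vars2, taken here as the cytosolic and the mitochondrial gene.

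The study measured messenger RNA of the supraspinatus, a muscle of the rotator cuff, in 16 libraries from Sprague Dawley rats. The 0-day group of 4 libraries came from unoperated controls. The other 3 groups, of 4 libraries each, were taken 10, 30 and 60 days after surgery on both shoulders that combined a full-thickness tear with suprascapular neurectomy, the removal of the nerve that supplies this muscle. All groups share the strain and the muscle, and every operated group carries both the tear and the loss of the nerve, so the effects of these injuries cannot be told apart. There was no sham operation, the labels used here give no age or sex, and they do not say whether libraries came from separate rats, so p-values measure the spread between these libraries. The titles end in L or R, which the labels do not explain.

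A synthetase recognises its amino acid and the matching tRNA, activates the amino acid with ATP and attaches it to the tRNA, which carries it to the ribosome. Cells run this reaction in the cytosol and again inside mitochondria, which make a few proteins of the respiratory chain with their own ribosomes, and most amino acids have a separate nuclear gene for each compartment. Several cytosolic enzymes are held together by scaffold proteins in the multisynthetase complex. In skeletal muscle, charged tRNA feeds the synthesis of contractile proteins, and mutations in these genes are known causes of neuropathy (cytosolic enzymes) and of mitochondrial disease (enzymes ending in 2).

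A motif of the amino acid response was found in some of the cytosolic promoters. Promoter windows of 300 bases, from 250 before to 50 after the annotated start site, were taken from RefSeq (GRCr8) and matched 31 of the 35 genes, 17 cytosolic and 14 mitochondrial. The C/EBP-ATF response element, through which the transcription factor ATF4 is known to act on amino acid genes, was searched as TGATGNAA on both strands and was present in 7 of the 17 cytosolic windows and 0 of the 14 mitochondrial windows. It was present in 3.98% of all 33469 windows of that length, 10 of the 17 cytosolic windows lack it too, and the difference between the compartments was not tested. These stretches are shown because they hold the matches; each is read 5′ to 3′ on the strand of its gene, and capitals mark the element, which reads as its reverse complement in all but Nars and Yars.
Aars, chr19:55908480-55908509, plus strand: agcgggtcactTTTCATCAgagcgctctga
Cars, chr1:208225334-208225363, minus strand: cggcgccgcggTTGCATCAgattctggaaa
Iars, chr17:15193658-15193687, minus strand: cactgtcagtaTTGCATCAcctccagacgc
Mars, chr7:65023752-65023781, minus strand: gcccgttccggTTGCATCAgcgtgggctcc
Nars, chr18:60275778-60275807, minus strand: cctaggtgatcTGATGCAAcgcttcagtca
Tars, chr2:62114811-62114840, minus strand: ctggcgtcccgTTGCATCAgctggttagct
Yars, chr5:146820190-146820212, plus strand: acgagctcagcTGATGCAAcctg
In these stretches the element began between positions -27 and 38 from the start site, which is position 0. A second motif, the E-box CACGTG, searched in the same windows, was in 5 cytosolic windows (Aars, Farsb, Iars, Tars and Vars) and 1 mitochondrial window (Ears2), against 6.42% of all windows. The motif of NRF1, a transcription factor known for genes of mitochondria, was in 3 cytosolic windows (Farsb, Sars and Tars) and 2 mitochondrial windows (Pars2 and Wars2), against 4.25% of all windows. None of these strings contains another. A match is a string of letters and no measurement of binding.

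The histidine genes are shown for their arrangement, since Hars and Hars2 moved apart in the data below although they lie head to head. In RefSeq (GRCr8) they are transcribed away from each other from either side of the stretch chr18:28672713-28672809, which lies outside both annotated genes and is given here on the plus strand, with Hars to its left on the minus strand and Hars2 to its right. The start sites of the promoter windows are 28672712 for Hars and 28672856 for Hars2, so the stretch is not the whole interval between them.
Hars and Hars2: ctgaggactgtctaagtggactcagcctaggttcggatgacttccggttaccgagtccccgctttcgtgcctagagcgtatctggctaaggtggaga
It holds 97 bases and nothing is marked in it, because none of the motifs searched was found in the window of either gene.

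Between 17184282 and 39903266 fragments were assigned to genes per library, and the 4 libraries at 60 days had fewer than any 0-day library (exact two-sided permutation test of the totals, n = 4 against 4, p = 0.0286, the smallest p this design allows). Levels are given as CPM, counts scaled to a library of fixed size, after TMM scaling, a method that sets the bulk of genes level between libraries; TMM factors were 0.750 to 0.775 at 0 days and 0.969 to 1.24 in the operated groups. The scaling matters here. Scaling by library totals instead raised the all-gene median of the log2 fold changes against 0 days by 0.66 at 10 days, 0.49 at 30 days and 0.41 at 60 days, so fold changes against 0 days are mostly given with their value under library totals, and a fold change is read relative to these shifts. Where no scaling is named, values and calls are those with TMM. Upper-quartile scaling moved the same medians by 0.12 at 30 days and 0.14 at 60 days. A gene was called higher or lower at an adjusted p under 0.05 from edgeR's quasi-likelihood test, adjusted over all 11658 genes, and ± after a log2 fold change is its standard error.

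Within each library, messenger RNA for cytosolic synthetases gained on that for mitochondrial synthetases at 10 days. This measure compares genes of the same library, so it does not depend on the scaling between libraries. The mean log2 CPM of the 20 cytosolic genes exceeded that of the 15 mitochondrial genes by 2.20, 2.19, 2.23 and 2.19 in the 4 libraries at 0 days. It was 2.71, 2.76, 2.78 and 2.76 at 10 days, above every library of the other groups. At 30 days the difference was 2.34, 2.19, 2.23 and 2.37, overlapping the 0-day group. At 60 days it was 2.43, 2.29, 2.33 and 2.30, above all 4 libraries of the 0-day group and below those at 10 days. The level of the difference itself also depends on transcript lengths, which the table does not give, so its changes between times are what can be read.

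**Figure D1:**
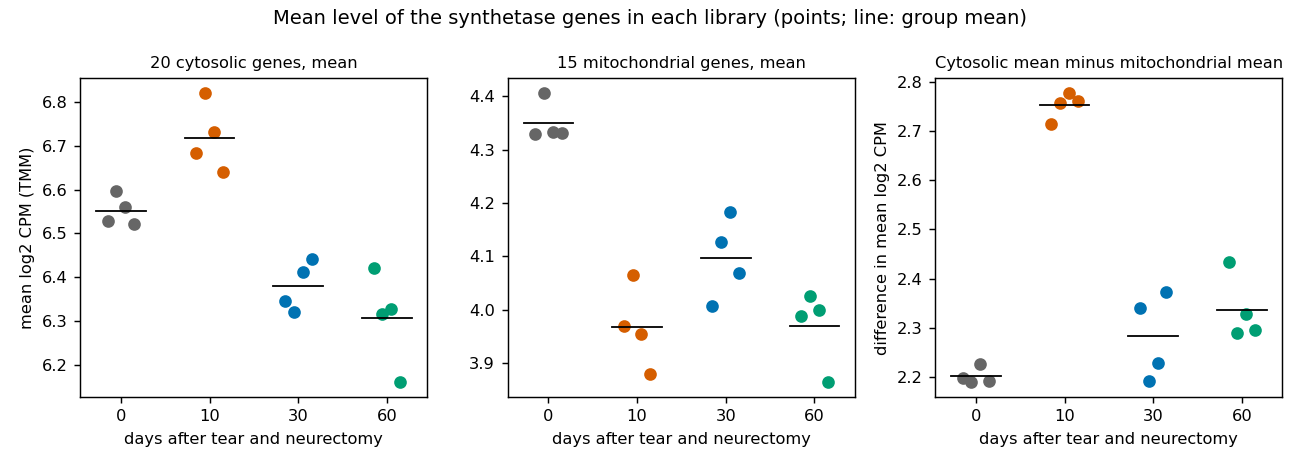
Mean log2 CPM (TMM) of the 20 cytosolic genes, of the 15 mitochondrial genes, and the difference of both means (vertical axes) in each library (points, 4 per time; lines, group means) against days after surgery (horizontal axes; the vertical axes do not start at 0). In the right panel the libraries at 10 days lie at 2.71 to 2.78 and those at 0 days at 2.19 to 2.23.

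The share of all fragments, which amounts to scaling by library totals, was higher at 10 days for both compartments, and more so for the cytosolic one. Cytosolic synthetases took 0.168, 0.175, 0.168 and 0.165% of the fragments at 0 days and 0.292, 0.314, 0.312 and 0.281% at 10 days, with no overlap. Mitochondrial synthetases took 0.0287, 0.0305, 0.0283 and 0.0288% at 0 days and 0.0344, 0.0361, 0.0354 and 0.0317% at 10 days, also with no overlap and opposite in direction to the calls with TMM. At 30 days the cytosolic shares were 0.216, 0.193, 0.195 and 0.217% and the mitochondrial shares 0.0351, 0.0345, 0.03496 and 0.035000%. Both lay above the 0-day group there. By 60 days the cytosolic share, 0.198, 0.187, 0.184 and 0.177%, was above and the mitochondrial share, 0.0292, 0.0311, 0.0302 and 0.0296%, overlapped the range at 0 days.

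By amino acid, the mean cytosolic to mitochondrial ratio was higher at 10 days for nearly every enzyme pair. Of 16 pairs, 15 had a higher mean ratio at 10 than at 0 days, with a median change of 0.60 on the log2 scale, and in 12 pairs the 4 ratios at 10 days lay above all 4 at 0 days. No background over all genes exists for such ratios; of single genes, 31.2% lay wholly above and 27.8% wholly below the 0-day libraries at 10 days. The pairs are not independent, since Eprs and Fars2 each enter 2 of them. The widest change was in the phenylalanine enzyme, whose Farsb to Fars2 ratio was 2.18 to 2.35 at 0 days and 8.64 to 9.397 at 10 days, a change of 2.00 in mean log2 ratio. The Wars to Wars2 ratio, for tryptophan, was 3.94 to 5.17 at 0 days and 8.34 to 11.4 at 10 days, a change of 1.04. Aars to Aars2, for alanine, was 3.55 to 4.13 at 0 days and 5.88 to 8.103 at 10 days, a change of 0.88. These 3 pairs did not overlap between the times. At the other end, the Rars to Rars2 ratio, for arginine, was 7.12 to 9.38 at 0 days and 5.59 to 7.67 at 10 days, overlapping, with a change of -0.40. The Vars to Vars2 ratio, for valine, overlapped too, at 5.04 to 6.303 and 6.24 to 6.76, a change of 0.19.

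Most of this shift was gone by 30 days. The median change of the 16 pairs against 0 days was 0.0042 at 30 days, with 4 pairs wholly above the 0-day libraries, 1 below and 11 overlapping, where 31.1% of single genes lay above and 29.1% below. At 60 days it was 0.12, with 6 above, 1 below and 9 overlapping, against 24.0% and 26.0% of single genes. Alanine, asparagine and histidine were above the 0-day range at all 3 times; for histidine the Hars to Hars2 ratio was 0.992 to 1.105 at 0 days, 1.54 to 1.62 at 10 days, 1.45 to 1.65 at 30 days and 1.29 to 1.38 at 60 days. Valine ran the other way: its ratio was 2.78 to 3.403 at 30 days and 3.26 to 4.83 at 60 days, below every 0-day library.

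**Figure D2:**
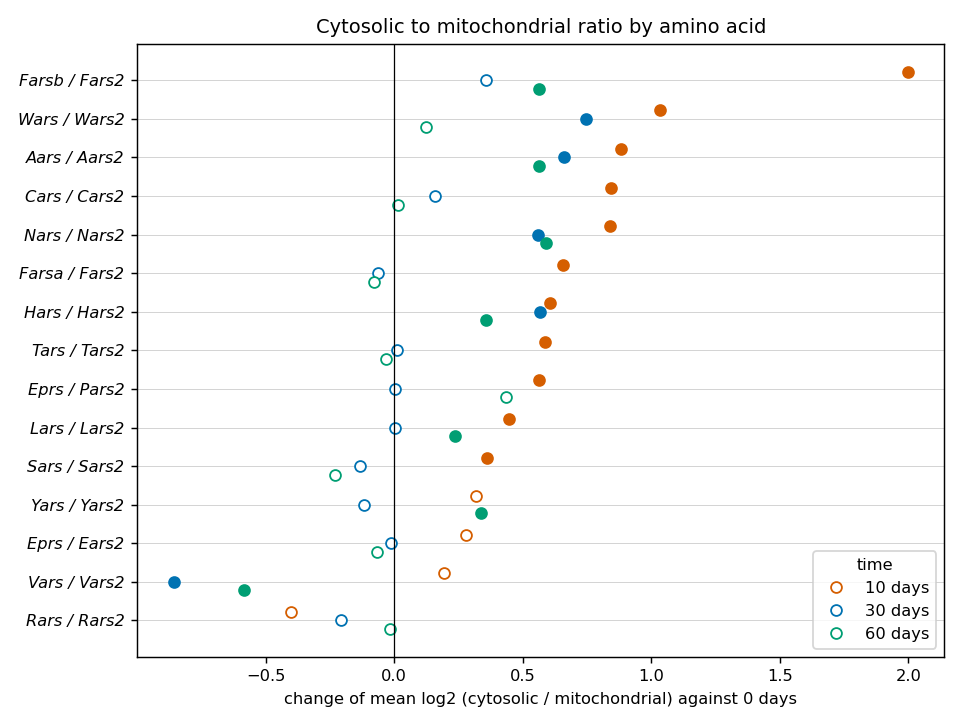
Change of the mean log2 ratio of a cytosolic gene to its mitochondrial counterpart against 0 days (horizontal axis) for 15 pairs (vertical axis) at 10, 30 and 60 days; filled points, the 4 ratios do not overlap those at 0 days; open points, they overlap. At 10 days the points run from -0.40 for Rars and Rars2 to 2.00 for Farsb and Fars2.

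At 10 days against 0 days, 9 of the 20 cytosolic genes were called higher and 3 lower, and 0 of the 15 mitochondrial genes were called higher and 9 lower. Of all tested genes 62.7% were called, 33.3% higher and 29.4% lower. The median log2 fold change was 0.10 for the cytosolic and -0.34 for the mitochondrial genes, beside 0.061 for all genes. Without 1 library the cytosolic median ranged from 0.0606 to 0.1502, so its low end reached the median of all genes. With library totals the medians were 0.76 and 0.31, all 20 cytosolic genes were called higher, and 9 mitochondrial genes were called higher and 1 lower. The 9 cytosolic genes higher with both scalings were Dars, Eprs, Farsb, Hars, Kars, Lars, Nars, Tars and Wars, and the 3 lower with TMM were Aars, Rars and Sars, each of which turned to higher with library totals.

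**Figure D3:**
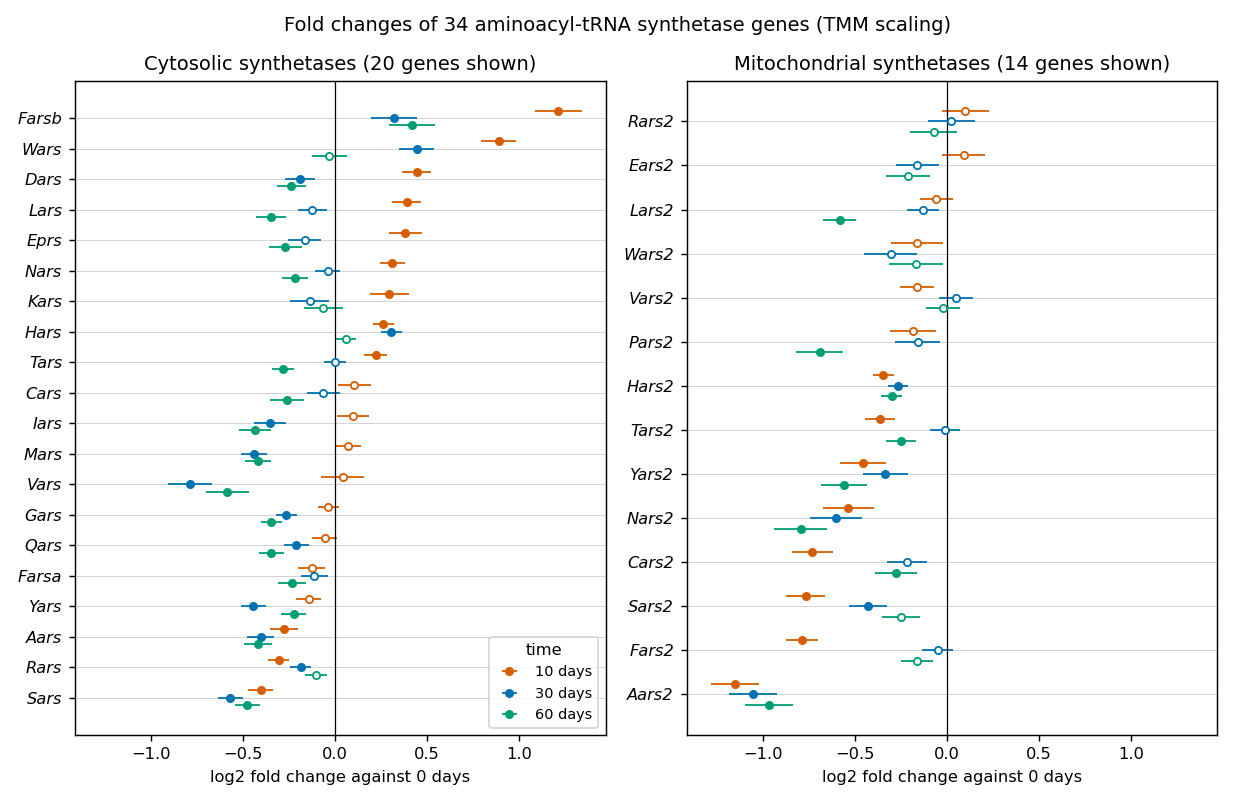
Log2 fold change against 0 days with its standard error (horizontal axis, TMM scaling) for 34 genes (vertical axis, ordered by the value at 10 days), 20 cytosolic on the left and 14 mitochondrial on the right; filled points, adjusted p under 0.05; open points, not called; 4 libraries per time. At 10 days the cytosolic points run from -0.40 for Sars to 1.21 for Farsb and the mitochondrial points from -1.15 for Aars2 to 0.10 for Rars2.

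Farsb, the beta subunit of cytosolic phenylalanyl-tRNA synthetase, showed the highest fold change of the cytosolic genes at 10 days. Its levels were 59.9, 64.9, 62.1 and 58.7 at 0 days, 151, 139.7, 148 and 132 at 10 days, 64.3, 78.5, 68.4 and 95.9 at 30 days, and 85.5, 79.3, 100.1 and 64.3 at 60 days (CPM). The 10-day libraries lay far above every other library, and the later groups overlapped the 0-day range. Its log2 fold change at 10 days was 1.21 ± 0.13 (2.32-fold, adjusted p = 3.56e-07; 1.87 with library totals). It was called higher also at 30 days, at 0.32 ± 0.12 (adjusted p = 0.0324; 0.81 with library totals), and at 60 days, at 0.42 ± 0.12 (adjusted p = 0.00857; 0.82 with library totals). Of the 35 genes it was the only one called higher at all 3 times, which 16.6% of all genes were. The 30-day call was lost (adjusted p 0.0513 to 0.153) without 0-day replicate 1, 3 or 4 or 30-day replicate 2 or 4, and with RLE scaling (0.29, adjusted p = 0.0505).

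The alpha subunit of the same enzyme, Farsa, did not follow. Both subunits are needed for an active enzyme. Farsa stood at 40.3, 40.02, 39.7 and 36.4 at 0 days, 34.3, 39.3, 34.9 and 34.8 at 10 days, 36.5, 33.2, 35.9 and 39.1 at 30 days, and 37.4, 32.2, 31.9 and 31.4 at 60 days (CPM), and its 10-day libraries overlapped those at 0 days. Its log2 fold change at 10 days was -0.13 ± 0.07 and was not called (adjusted p = 0.14997; 0.53 with library totals). The Farsb to Farsa ratio within a library was 1.49 to 1.62 at 0 days and 3.56 to 4.39 at 10 days. It was 1.76 to 2.45 at 30 days and 2.05 to 3.14 at 60 days, above every 0-day library at each time. The difference between both subunits therefore does not rest on the scaling. The mitochondrial enzyme is the single-chain Fars2, which stood at 26.3, 29.7, 26.4 and 25.6 at 0 days, 16.6, 16.2, 15.8 and 14.2 at 10 days, 23.5, 27.4, 29.1 and 24.5 at 30 days, and 21.995, 25.97, 25.2 and 23.6 at 60 days (CPM). Its 10-day libraries were the low ones, below all others, and it was called lower at 10 days (-0.78 ± 0.09, adjusted p = 7.15e-07; -0.13 with library totals). At 30 and 60 days it was not called (-0.05 ± 0.09 and -0.16 ± 0.09; 0.44 and 0.25 with library totals).

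Wars, the tryptophan enzyme, also known for its induction by interferon gamma, stood at 39.02, 42.7, 41.5 and 44.7 at 0 days, 74.2, 90.9, 74.2 and 72.04 at 10 days, 59.6, 56.3, 54.3 and 58.4 at 30 days, and 49.5, 37.1, 41.1 and 36.7 at 60 days (CPM). All libraries at 10 and at 30 days lay above those at 0 days, and those at 60 days overlapped them. Its log2 fold change was 0.89 ± 0.09 at 10 days (1.85-fold, adjusted p = 4.87e-07; 1.55 with library totals) and 0.44 ± 0.09 at 30 days (adjusted p = 0.000638; 0.94 with library totals). At 60 days it was not called (-0.03 ± 0.10; 0.37 with library totals and 0.11 with upper-quartile factors). Of all genes 33.3%, 33.7% and 29.9% were called higher at 10, 30 and 60 days. Of a list of 11 interferon response genes, 10 were called higher at 10 days, 6 at 30 days and 9 at 60 days. Among them Cxcl10, a chemokine, was 0.4498, 0.624, 0.535 and 0.575 CPM at 0 days and 2.81, 1.08, 2.67 and 6.55 CPM at 10 days (2.56 ± 0.49, adjusted p = 0.000253; 3.22 with library totals). A link between the list and Wars was not tested.

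Dars, the aspartate enzyme and a member of the multisynthetase complex, stood at 105, 110.5, 101 and 96.5 at 0 days, 128, 156, 143 and 134 at 10 days, 90.7, 88.02, 89.9 and 93.6 at 30 days, and 99.4, 86.1, 87.9 and 76.9 at 60 days (CPM). The 10-day libraries were above all others. Its log2 fold change at 10 days was 0.44 ± 0.08 (adjusted p = 0.000119; 1.10 with library totals). It was called lower at 30 days (-0.19 ± 0.08, adjusted p = 0.0448) and 60 days (-0.24 ± 0.08, adjusted p = 0.0169), but library totals gave 0.31 and 0.17, and the call at 30 days did not hold in 10 of the 16 fits without 1 library (0-day replicates 1 to 3, 10-day replicate 3, each 30-day replicate, or 60-day replicate 2 or 3; adjusted p 0.0515 to 0.142). The 60-day call was lost without 0-day replicate 1 or 2 or 60-day replicate 4 (adjusted p 0.0548 to 0.0964).

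The other 6 cytosolic genes called higher at 10 days had log2 fold changes of 0.39 for Lars (leucine), 0.38 for Eprs (the fused enzyme for glutamate and proline), 0.31 for Nars (asparagine), 0.30 for Kars (lysine), 0.26 for Hars (histidine) and 0.22 for Tars (threonine), against 1.05, 1.04, 0.97, 0.95, 0.92 and 0.88 with library totals. In each of them the 4 libraries at 10 days lay above those at 0 days. At 60 days Lars (-0.35), Eprs (-0.27), Nars (-0.22) and Tars (-0.28) were called lower than at 0 days, where library totals gave 0.06, 0.14, 0.19 and 0.13. The 60-day call of Eprs was lost without 0-day replicate 2 or 3 or 60-day replicate 4 (adjusted p 0.0646 to 0.0902), and that of Nars without 0-day replicate 1 or 60-day replicate 4 (adjusted p = 0.0681 and 0.0748). Hars was called higher at 10 days (0.26 ± 0.06, adjusted p = 0.000743) and 30 days (0.31 ± 0.06, adjusted p = 0.000196), with levels of 51.7, 53.1, 51.4 and 50.9 at 0 days, 60.3, 65.2, 61.9 and 60.9 at 10 days, 62.6, 59.2, 66.5 and 67.8 at 30 days, and 54.9, 52.4, 56.1 and 52.3 at 60 days (CPM). The 10- and 30-day libraries lay above the 0-day ones and the 60-day libraries overlapped them; library totals gave 0.92, 0.80 and 0.47 at the 3 times, and upper-quartile factors called it higher also at 60 days (0.20, adjusted p = 0.00396 against 0.391 with TMM).

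Sars and Rars had the lowest cytosolic fold changes at 10 days. Sars, the serine enzyme, stood at 153, 157, 162 and 151 at 0 days, 110.2, 123, 122 and 116 at 10 days, 100.2, 99.3, 109.8 and 111 at 30 days, and 121, 110.4, 116 and 101 at 60 days (CPM). Every operated library was below every 0-day library. Its log2 fold change was -0.40 ± 0.07 at 10 days, -0.57 ± 0.07 at 30 days and -0.48 ± 0.07 at 60 days, and each was called lower (adjusted p = 6.61e-05, 2.20e-06 and 1.92e-05), while library totals gave 0.26, -0.07 and -0.07, so at 10 days the sign depended on the scaling. Rars, the arginine enzyme of the complex, stood at 78.9, 86.8, 84.9 and 82.3 at 0 days, 64.998, 67.4, 70.6 and 66.3 at 10 days, 69.1, 72.7, 77.1 and 73.8 at 30 days, and 75.7, 78.7, 82.3 and 73.4 at 60 days (CPM). Its 10- and 30-day libraries were below those at 0 days and the 60-day ones overlapped them. It was called lower at 10 days (-0.31 ± 0.06, adjusted p = 0.000225) and 30 days (-0.19 ± 0.06, adjusted p = 0.0103) with TMM, with the opposite sign under library totals (0.35 and 0.31). At 60 days it was not called (-0.10 ± 0.06; 0.30 with library totals). Sars and Aars were the 2 cytosolic genes called lower at all 3 times, with -0.28, -0.40 and -0.42 for Aars, the alanine enzyme, against 0.38, 0.09 and -0.01 with library totals; of all genes 15.6% were lower at all 3 times.

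**Figure D4:**
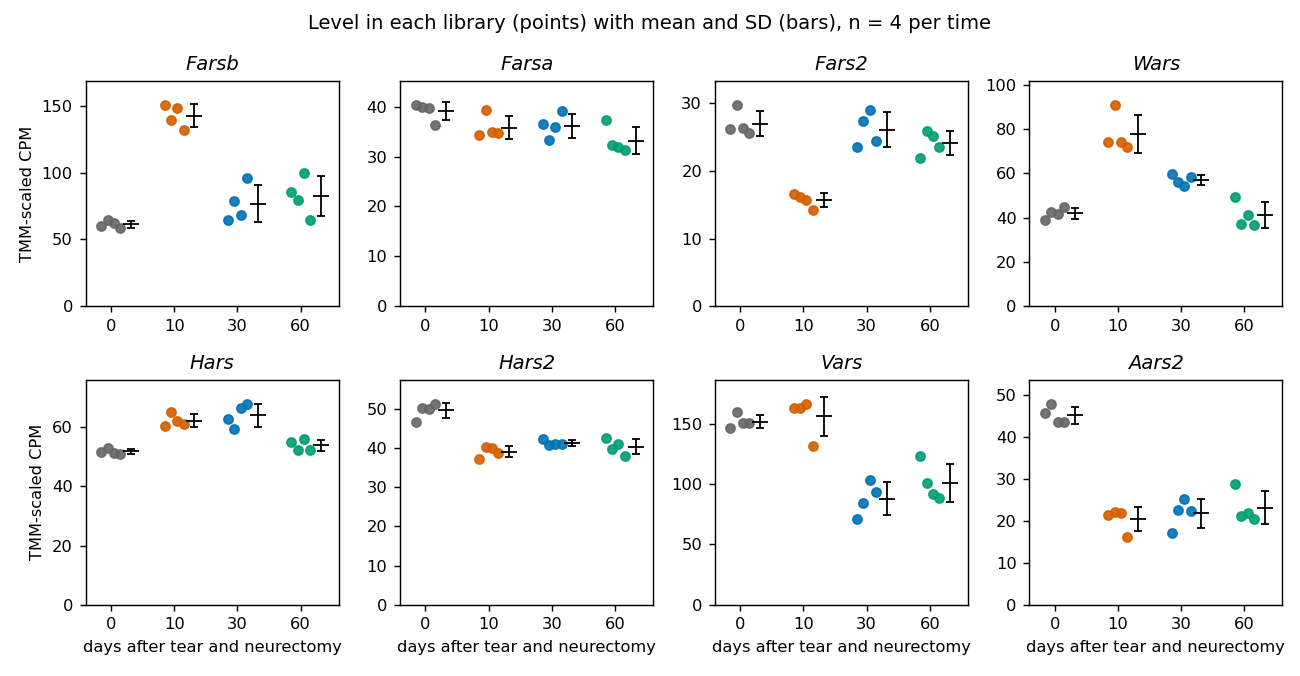
TMM-scaled CPM of 8 synthetase genes (vertical axes, from 0) in each library (points) with the mean and SD of the 4 libraries beside them (bars), against days after surgery (horizontal axes). Farsb is highest in the 10-day libraries (132 to 151), where Fars2 is lowest (14.2 to 16.6), and Aars2 is below its 0-day range (43.5 to 47.8) in every operated library.

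Among the mitochondrial genes, Aars2, the alanine enzyme, had the lowest fold change at each time. Its levels were 45.5, 47.8, 43.5 and 43.5 at 0 days, 21.3, 22.1, 21.7 and 16.1 at 10 days, 16.97, 22.6, 25.2 and 22.4 at 30 days, and 28.8, 21.1, 21.9 and 20.4 at 60 days (CPM). Every operated library was below every 0-day library, with 10-day replicate 4 and 30-day replicate 1 the lowest. The log2 fold change was -1.15 ± 0.13 at 10 days (0.4502-fold, adjusted p = 9.54e-07), -1.05 ± 0.13 at 30 days (adjusted p = 3.36e-06) and -0.97 ± 0.13 at 60 days (adjusted p = 1.19e-05). Library totals gave -0.49, -0.56 and -0.56, so the direction held with both scalings. Aars2, Hars2, Nars2 and Yars2 were the 4 mitochondrial genes called lower at all 3 times. Hars2, the histidine enzyme, was at -0.34, -0.26 and -0.30, with library totals giving 0.31, 0.23 and 0.11. Its neighbour Hars was called higher at 10 and 30 days, so at those times both genes were on opposite sides of 0 with TMM and on the same side with library totals.

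Nars2, the asparagine enzyme, had the second lowest mitochondrial fold change at 30 and 60 days. It stood at 12.5, 15.3, 12.5 and 11.7 at 0 days, 9.198, 10.2, 8.04 and 8.54 at 10 days, 8.54, 9.92, 7.64 and 8.16 at 30 days, and 9.64, 7.85, 6.49 and 6.04 at 60 days (CPM), and every operated library was below every 0-day library. Its log2 fold change was -0.53 ± 0.14, -0.60 ± 0.14 and -0.79 ± 0.14 at 10, 30 and 60 days (adjusted p = 0.00313, 0.00134 and 0.000194); library totals gave 0.12, -0.11 and -0.39. Yars2, for tyrosine, was at -0.45, -0.33 and -0.56 with TMM and at 0.20, 0.16 and -0.15 with library totals, and its 30-day call was lost without 0-day replicate 1, 2 or 3 or 30-day replicate 2 or 4 (adjusted p 0.0552 to 0.0818).

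A second group of mitochondrial genes was lowest at 10 days and was called higher with TMM at both 30 and 60 days than at 10 days. Besides Fars2 it held Sars2 (serine), at -0.77, -0.43 and -0.25, and Cars2 (cysteine), at -0.73, -0.22 and -0.28. Tars2, described below, was also lowest at 10 days, but against 10 days it was called higher only at 30 days. With library totals Sars2 was at -0.11, 0.06 and 0.16 and Cars2 at -0.07, 0.28 and 0.14. The last Sars2 value was not called (adjusted p = 0.0524) but was called lower without 30-day replicate 1 or 3 or 60-day replicate 2 or 3 (adjusted p 0.0204 to 0.0429). From 10 to 60 days Fars2 (0.62 ± 0.09), Sars2 (0.52 ± 0.11) and Cars2 (0.45 ± 0.11) were called higher, also above 0 with library totals (0.37, 0.27 and 0.21). The call of Cars2 at 60 days against 0 days (adjusted p = 0.0442) was lost in 8 of the 16 fits without 1 library: each 0-day replicate, 30-day replicate 2, or 60-day replicate 1, 2 or 3 (adjusted p 0.0506 to 0.121).

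The mitochondrial genes with the highest fold changes at 10 days were not called there with TMM. Rars2, for arginine, stood at 11.1, 9.24, 9.28 and 9.96 at 0 days, 10.4, 10.9, 9.19 and 11.9 at 10 days, 9.71, 10.5, 10.9 and 9.09 at 30 days, and 7.61, 12.1, 8.94 and 9.07 at 60 days (CPM), with overlapping groups, and its log2 fold changes were 0.10 ± 0.13, 0.03 ± 0.13 and -0.07 ± 0.13 (adjusted p = 0.4999, 0.873 and 0.654; 0.76, 0.52 and 0.34 with library totals). Ears2, for glutamate, stood at 12.7, 8.91, 10.5 and 8.81 at 0 days, 11.03, 11.8, 10.2 and 10.5 at 10 days, 9.601, 9.05, 9.12 and 8.73 at 30 days, and 10.01, 9.198, 8.3003 and 7.78 at 60 days (CPM), overlapping at every time; its values were 0.09 ± 0.12, -0.16 ± 0.12 and -0.21 ± 0.12 (adjusted p = 0.504, 0.239 and 0.139; 0.75, 0.33 and 0.19 with library totals). Lars2, for leucine, stood at 30.1, 32.02, 30.96 and 28.4 at 0 days, 29.2, 31.3, 30.3 and 26.2 at 10 days, 27.95, 27.5, 25.1 and 30.7 at 30 days, and 23.3, 19.2, 20.9 and 17.9 at 60 days (CPM). Its 60-day libraries were below all others, and it was called lower at 60 days (-0.58 ± 0.09, adjusted p = 4.49e-05; -0.18 with library totals) but not at 10 or 30 days (-0.06 ± 0.09 and -0.13 ± 0.09; 0.60 and 0.37 with library totals).

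The remaining mitochondrial genes described singly were Vars2, Tars2, Pars2 and Wars2. Vars2, for valine, stood at 23.2, 28.98, 25.1 and 29.8 at 0 days, 24.95, 25.04, 24.6 and 21.1 at 10 days, 25.4, 27.1, 30.2 and 28.3 at 30 days, and 25.6, 27.6, 28.2 and 24.4 at 60 days (CPM). Its groups overlapped at every time and none of its fold changes was called with TMM (-0.16 ± 0.09, 0.05 ± 0.09 and -0.02 ± 0.09; 0.50, 0.54 and 0.39 with library totals). Tars2, for threonine, stood at 71.7, 76.4, 75.6 and 74.6 at 0 days, 58.1, 64.6, 57.9 and 51.5 at 10 days, 66.7, 72.4, 83.7 and 74.03 at 30 days, and 61.5, 67.1, 66.3 and 56.1 at 60 days (CPM). Its 10- and 60-day libraries were below those at 0 days; with TMM it was called lower at 10 days (-0.36 ± 0.08, adjusted p = 0.000993) and 60 days (-0.25 ± 0.08, adjusted p = 0.0154) but not at 30 days (-0.01 ± 0.08), while library totals gave 0.30, 0.16 and 0.48. Its 60-day call was lost without 0-day replicate 2 or 3 or 60-day replicate 4 (adjusted p 0.0541 to 0.0950). Pars2 (proline) was called lower at 60 days (-0.69; -0.28 with library totals), and Wars2 (tryptophan) was not called at any time with TMM and all libraries (-0.16, -0.30 and -0.17; 0.50, 0.18 and 0.24 with library totals). Wars2 was called higher at 10 days with library totals (adjusted p = 0.00275), and lower at 30 days by DESeq2 (-0.33, adjusted p = 0.0432) and without 30-day replicate 3 (adjusted p = 0.0474).

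At 30 days the cytosolic genes were mostly at or below their 0-day levels with TMM. Of the 20, 3 were called higher (Farsb, Hars and Wars) and 10 lower, and of the 15 mitochondrial genes 0 were called higher and 5 lower, where 64.6% of all genes were called, 33.7% higher and 30.9% lower. The medians were -0.18 for cytosolic and -0.17 for mitochondrial genes, beside 0.046 for all genes. With library totals they were 0.32 for both, with 14 cytosolic genes called higher and 1 lower, and 10 mitochondrial genes higher and 1 lower. Vars, the cytosolic valine enzyme, had the lowest cytosolic value. It stood at 146, 159, 151 and 150.2 at 0 days, 163, 163, 166 and 132 at 10 days, 70.7, 84.5, 103 and 93.4 at 30 days, and 124, 101, 91.8 and 88.003 at 60 days (CPM). The 30- and 60-day libraries lay below all 0-day ones, and those at 10 days overlapped them through replicate 4. It was called lower at 30 days (-0.79 ± 0.12, 0.5798-fold, adjusted p = 2.35e-05) and 60 days (-0.58 ± 0.12, adjusted p = 0.000487) and not at 10 days (0.04 ± 0.12); library totals gave -0.30, -0.18 and 0.70. Mars (methionine), Yars (tyrosine) and Iars (isoleucine) were called lower at 30 days too (-0.44, -0.44 and -0.35; 0.06, 0.05 and 0.14 with library totals).

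At 60 days the counts were lower still in TMM units. Of the cytosolic genes 1 was called higher (Farsb) and 15 lower, and of the mitochondrial genes 0 higher and 9 lower, where 59.0% of all genes were called, 29.9% higher and 29.1% lower. The medians were -0.26 and -0.28, beside 0.040 for all genes. With library totals they were 0.14 and 0.14, with 7 cytosolic genes higher and 0 lower and 3 mitochondrial genes higher and 2 lower; upper-quartile factors gave 2 cytosolic genes higher and 9 lower. The cytosolic count of 15 fell to 9 without 60-day replicate 4, where Cars, Dars, Eprs, Farsa, Nars and Yars were no longer called. These 6 genes had log2 fold changes of -0.27 to -0.22 with all libraries, all above 0 with library totals. Cars was also lost without 0-day replicate 2, 3 or 4 (adjusted p 0.0580 to 0.127 over its 4 lost fits) and Farsa without 0-day replicate 1 (adjusted p = 0.0510).

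From 10 to 30 days the cytosolic calls were mainly lower with both scalings (13 with TMM and 17 with library totals). The mitochondrial calls were few. With TMM they were higher (4 of 15, near the 23.0% of all genes called higher), and with library totals they were mixed (3 higher and 2 lower). With library totals the all-gene median was -0.13 there, and 27.6% of all called genes were higher. The counts that follow are those with TMM. Of the cytosolic genes 0 were called higher and 13 lower, and of the mitochondrial genes 4 were called higher (Cars2, Fars2, Sars2 and Tars2) and 0 lower, where 47.3% of all genes were called, 23.0% higher and 24.3% lower. The widest cytosolic value was that of Farsb (-0.89 ± 0.12, adjusted p = 2.49e-05; -1.06 with library totals) and the widest mitochondrial one that of Fars2 (0.74 ± 0.09, adjusted p = 5.05e-06; 0.57 with library totals). From 30 to 60 days 1 cytosolic gene was called higher (Yars) and 3 lower (Hars, Tars and Wars), and 3 mitochondrial genes lower (Lars2, Pars2 and Tars2), where 22.6% of all genes were called, 10.3% higher and 12.4% lower. The Yars call (0.22 ± 0.07, adjusted p = 0.0304; 0.14 with library totals) was lost without 30-day replicate 1, 2 or 4 or 60-day replicate 2 or 3, and without 60-day replicate 1 the number of lower cytosolic genes was 5 instead of 3. The Tars2 call (-0.24 ± 0.08, adjusted p = 0.0421) was lost in 12 of the 16 fits without 1 library (adjusted p up to 0.162), and the Sars2 call from 10 to 30 days without 30-day replicate 3 (adjusted p = 0.0564). From 10 to 60 days 1 cytosolic gene was called higher (Rars, 0.20 ± 0.06; -0.05 with library totals) and 15 lower, against 3 mitochondrial genes higher and 3 lower (Ears2, Lars2 and Pars2; Ears2, -0.30 ± 0.12, was lost in 5 fits without 1 library, adjusted p up to 0.133), where 61.1% of all genes were called, 29.1% higher and 31.9% lower. Of the 20 cytosolic genes 9, and of the 15 mitochondrial genes 0, were called both higher at 10 than at 0 days and lower at 60 than at 10 days, against 2192 of the 11658 tested genes (18.8%). Among the 3881 genes called higher at 10 days, 56.5% were called lower at 60 than at 10 days, as were all 9 such cytosolic genes. With library totals 19 cytosolic genes were called lower from 10 to 60 days. The all-gene median there was -0.26 with that scaling, and 27.95% of all called genes were higher.

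The multisynthetase complex and the other cytosolic enzymes were counted apart, beside 33.3% of all genes called higher and 29.4% lower at 10 days, 33.7% and 30.9% at 30 days, and 29.9% and 29.1% at 60 days. Of the complex's 8 enzymes (Dars, Eprs, Iars, Kars, Lars, Mars, Qars and Rars), 4 were called higher and 1 lower at 10 days, 5 lower at 30 days and 6 lower at 60 days, with medians of 0.20, -0.19 and -0.31. Of the 12 outside it, 5 were called higher and 2 lower at 10 days, 3 and 5 at 30 days, and 1 and 9 at 60 days, with medians of 0.074, -0.087 and -0.25. With library totals the complex had medians of 0.86, 0.31 and 0.098, with 8, 6 and 2 called higher and 0 lower at each time. The others had 0.73, 0.41 and 0.16, with 12, 8 and 5 higher and 0, 1 and 0 lower. With that scaling the all-gene medians were 0.72, 0.54 and 0.45, and 87.4%, 84.1% and 82.7% of all called genes were higher. By catalytic class, the class I genes counted 2 higher and 3 lower of 16 at 10 days, and the class II genes 6 higher and 9 lower of 18, with Eprs, which has a domain of each class, left out. At 60 days the counts were 0 higher and 10 lower for class I and 1 higher and 13 lower for class II. With library totals they were 14 higher and 0 lower for class I and 14 and 1 for class II at 10 days, and 5 and 0 and 5 and 2 at 60 days. The differences between these groups were not tested. With TMM the cytosolic genes whose promoter holds the response element had a median of 0.099 at 10 days, 2 called higher and 1 lower of 7, and the 10 without it had 0.28, 6 higher and 1 lower. At 30 days these medians were -0.35 (0 higher and 4 lower) with the element and -0.13 (3 and 3) without it, and at 60 days -0.28 (0 and 7) and -0.25 (1 and 6). With library totals the medians were 0.76, 0.14 and 0.13 with the element and 0.94, 0.37 and 0.15 without it, and 7 of 7 and 10 of 10 genes were called higher at 10 days.

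Gars and Kars make both the cytosolic and the mitochondrial enzyme from 1 gene, and Qars has no mitochondrial counterpart, since mitochondria charge this tRNA through glutamate and an amidotransferase. Gars, for glycine, stood at 100.3, 104, 105 and 104 at 0 days, 100.3, 105, 102 and 96.1 at 10 days, 81.7, 84.4, 91.2 and 87.1 at 30 days, and 83.5, 84.7, 82.2 and 74.98 at 60 days (CPM). Its 30- and 60-day libraries were below those at 0 days, and the 10-day ones overlapped them. The log2 fold changes were -0.03 ± 0.06, -0.26 ± 0.06 and -0.34 ± 0.06 (adjusted p = 0.612, 0.00079003 and 9.58e-05; 0.62, 0.23 and 0.06 with library totals). Kars, for lysine, stood at 273, 287, 277 and 270.1 at 0 days, 333, 346, 356 and 325 at 10 days, 262, 234, 243 and 267 at 30 days, and 348, 245, 238 and 229 at 60 days (CPM). The 10-day libraries were above the 0-day ones, and at 60 days replicate 1 lay far above the other 3. Its values were 0.30 ± 0.11, -0.14 ± 0.11 and -0.06 ± 0.11 (adjusted p = 0.0221, 0.265 and 0.6198; 0.95, 0.36 and 0.34 with library totals). The 10-day call was lost without 10-day replicate 3 (0.27, adjusted p = 0.0554), and without 60-day replicate 1 Kars was called lower at 60 days (-0.23, adjusted p = 0.00736). Qars, for glutamine, stood at 232, 236, 231 and 234 at 0 days, 214, 242, 228 and 215 at 10 days, 190.4, 198, 211 and 209 at 30 days, and 199, 179, 191 and 166 at 60 days (CPM), with 30- and 60-day libraries below the 0-day range and 10-day libraries overlapping it. Its values were -0.05 ± 0.07, -0.21 ± 0.07 and -0.35 ± 0.07 (adjusted p = 0.503, 0.0125 and 0.000414; 0.60, 0.28 and 0.06 with library totals).

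The partners of the synthetases were counted from lists. Of the 3 scaffold proteins of the complex, Eef1e1 was called higher at 10 days (0.37 ± 0.08, adjusted p = 0.000571; 1.03 with library totals), Aimp1 passed the test at no time with TMM (-0.11, 0.07 and 0.08; 0.54, 0.57 and 0.49 with library totals), and Aimp2 was called lower at 10 and 30 days. Aimp2, on which the complex is known to assemble, went from 63.4, 68.8, 77.1 and 66.1 CPM at 0 days to 36.04, 35.7, 34.1 and 33.6 CPM at 10 days, with no overlap. Its log2 fold changes were -0.98 ± 0.09, -0.28 ± 0.09 and -0.07 ± 0.09 at the 3 times (-0.32, 0.21 and 0.34 with library totals), so at 10 days the direction held with both scalings.

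Of 12 other genes of tRNA charging and editing 10 were tested, and 4 were called higher and 6 lower at 10 days, 3 and 4 at 30 days, and 1 and 3 at 60 days. Of all genes 33.3%, 33.7% and 29.9% were called higher at these times, and 29.4%, 30.9% and 29.1% lower. With library totals the counts for this list were 6 higher and 2 lower, 6 and 1, and 5 and 1, and 87.4%, 84.1% and 82.7% of all called genes were higher with that scaling. Tarsl2, the second cytosolic threonine enzyme, went down through 30 days. It was at 44.6, 44.1, 44.6 and 40.8 at 0 days, 25.5, 25.9, 24.2 and 21.4 at 10 days, 11.97, 12.1, 10.7 and 13.95 at 30 days, and 18.7, 9.59, 10.3 and 9.24 at 60 days (CPM), every operated library below every 0-day library, with log2 fold changes of -0.84 ± 0.16, -1.84 ± 0.17 and -1.86 ± 0.17 (-0.19, -1.34 and -1.46 with library totals). The Tarsl2 to Tars ratio was 0.713 to 0.771 at 0 days, 0.311 to 0.399 at 10 days and 0.179 to 0.239 at 30 days; reads of similar stretches of both genes could have been split between them. Qrsl1, the amidotransferase subunit that completes mitochondrial glutaminyl-tRNA and which was named after its values were seen, was called lower at 10 and 30 days (-1.42 ± 0.13 and -0.57 ± 0.13; -0.77 and -0.08 with library totals). Pstk, a kinase that prepares selenocysteine on its tRNA, was called lower at 10 days (-2.03 ± 0.18; -1.37 with library totals). Mtfmt, which formylates the mitochondrial initiator tRNA, was called higher at all 3 times (0.97 ± 0.08, 0.65 ± 0.08 and 0.22 ± 0.08; 1.62, 1.15 and 0.63 with library totals), with 16.02, 14.4, 15.4 and 13.4 CPM at 0 days and 28.2, 31.1, 27.8 and 28.5 CPM at 10 days.

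The sign of the medians of the mitochondrial translation factors depended on the scaling, but with both they were below the all-gene medians. Of 9 listed 8 were tested, and 0 were called higher and 6 lower at 10 days, 5 lower at 30 days and 7 lower at 60 days. Of all genes 33.3%, 33.7% and 29.9% were called higher, and 29.4%, 30.9% and 29.1% lower. The list medians were -0.30, -0.33 and -0.35, beside 0.061, 0.046 and 0.040 for all genes. With library totals 5 were called higher and 2 lower, 3 and 1, and 1 and 1, with medians of 0.36, 0.16 and 0.057. The all-gene medians were then 0.72, 0.54 and 0.45, and 87.4%, 84.1% and 82.7% of all called genes were higher. Tufm, the mitochondrial elongation factor that brings charged tRNA to the ribosome, was at 217, 228, 245 and 239.7 CPM at 0 days and 122, 113, 102 and 106 CPM at 10 days (-1.07 ± 0.10, adjusted p = 1.89e-07; -0.41 with library totals). Gfm1, which moves the mitochondrial ribosome along, was called lower at all 3 times (-0.94 ± 0.07, -0.74 ± 0.07 and -0.76 ± 0.07; -0.28, -0.25 and -0.36 with library totals). These 2 genes were below the 0-day range at 10 days without overlap and stayed below 0 at that time with both scalings.

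The list of Atf4 and genes known to respond to amino acid shortage was mixed with TMM. Of its 18 genes 6 were called higher and 6 lower at 10 days, 6 and 5 at 30 days, and 7 and 5 at 60 days. The medians were 0.17, 0.16 and 0.39. Of all genes 33.3%, 33.7% and 29.9% were called higher at these times, and 29.4%, 30.9% and 29.1% lower. The counts at 10 days were near these shares. With library totals 12 were called higher and 2 lower, 11 and 3, and 12 and 3, with medians of 0.83, 0.65 and 0.80. With that scaling the all-gene medians were 0.72, 0.54 and 0.45, and 87.4%, 84.1% and 82.7% of all called genes were higher. Atf4 itself, the transcription factor of this response, was at 553, 543, 603 and 613 at 0 days, 161, 161, 161 and 189 at 10 days, 185, 219, 239 and 211 at 30 days, and 263, 343, 351 and 239 at 60 days (CPM), every operated library below every 0-day library. Its log2 fold changes were -1.78 ± 0.12, -1.44 ± 0.12 and -0.95 ± 0.12 (adjusted p = 3.23e-09, 3.68e-08 and 4.44e-06; -1.12, -0.95 and -0.55 with library totals). Slc7a5, which imports large neutral amino acids, was called higher at 10 and 30 days, with 1.29, 1.43, 1.03 and 1.01 CPM at 0 days and 8.502, 11.2, 8.798 and 10.1 CPM at 10 days (3.01 ± 0.24 and 1.62 ± 0.24; 3.66 and 2.13 with library totals), and its partner chain Slc3a2, named after its values were seen, was called lower at all 3 times (-0.29, -0.89 and -0.74; 0.37, -0.40 and -0.34 with library totals). Slc7a11, which imports cystine, was called higher at all 3 times, from 0.169, 0.0734, 0.0892 and 0.192 CPM at 0 days to 0.673, 1.85, 0.3601 and 0.322 CPM at 30 days. Replicates 2 and 3 at 0 days lay under the floor of 3 counts in their libraries (0.0840 and 0.100 CPM), so no fold change is given. Chac1, which degrades glutathione, was called lower at 30 and 60 days (-2.94 ± 0.29 and -3.03 ± 0.30; -2.44 and -2.61 with library totals).

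Marker genes of the cell types of muscle moved with time beside the synthetases. Levels and counts are those with TMM unless named. Of all genes 33.3%, 33.7% and 29.9% were called higher at 10, 30 and 60 days, and 29.4%, 30.9% and 29.1% lower. Of 5 muscle fibre markers 4 were tested (Acta1, Ckm, Tnnt3 and Mylpf), and their summed level was 132470.0 to 144550.0 CPM at 0 days, 26926 to 31526 CPM at 10 days, 58108 to 96676 CPM at 30 days and 90915 to 104870.0 CPM at 60 days; 4, 3 and 2 were called lower at the 3 times. With library totals 4, 2 and 1 were lower, and Mylpf was called higher at 30 and 60 days (0.56 and 0.54). The 7 macrophage and monocyte markers summed to 30.03 to 40.7 CPM at 0 days and 89.9 to 133 CPM at 10 days, with 6, 7 and 7 called higher. The 6 fibroblast markers summed to 455 to 974 CPM at 0 days and 928 to 2856 CPM at 10 days, with overlap, and 5, 6 and 6 were called higher. With library totals all 7 and all 6 were called higher at each time, where 87.4%, 84.1% and 82.7% of all called genes were higher. The 4 endothelial markers summed to 197 to 239.8 CPM at 0 days and 105 to 166 CPM at 10 days, when 4 were called lower with TMM and 1 with library totals. The 2 smooth muscle markers went from 153 to 215 CPM to 64.99 to 96.4 CPM at 10 days, 2 called lower with TMM and 0 with library totals. The 4 Schwann cell markers summed to 48.5 to 78.02 CPM at 0 days, 21.2 to 41.5 CPM at 10 days (2 called lower) and 91.1 to 210.2 CPM at 60 days, when all 4 were called higher with both scalings. Adipocyte markers, 4 in number, were not called at 10 or 30 days and were all called higher at 60 days, when they summed to 49.6 to 119 CPM against 7.42 to 41.5 CPM at 0 days. Of 2 satellite cell markers 1 was called higher at each time and 0 lower. Of 2 proliferation markers 0, 2 and 1 were called higher at the 3 times. Of 3 T cell markers 2 were tested, and 2, 2 and 1 were called higher, from a sum of 0 to 0.491 CPM at 0 days. The 1 red blood cell marker tested was called lower at 10 days only. None of the listed markers found in the table was at 0 in every library. In such bulk samples, fewer cells of a type and less RNA per cell cannot be told apart, and the part of these shifts in the synthetase results was not tested.

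The scaling set the sign of most synthetase changes. Of 102 values against 0 days (34 genes at 3 times), 58 were below 0 with TMM and above 0 with library totals and were called with at least 1 of these scalings. Aars2 stayed below 0, and Farsb and Hars above 0, at all 3 times under both. The value of Hars at 60 days was not called with TMM.

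**Figure D5:**
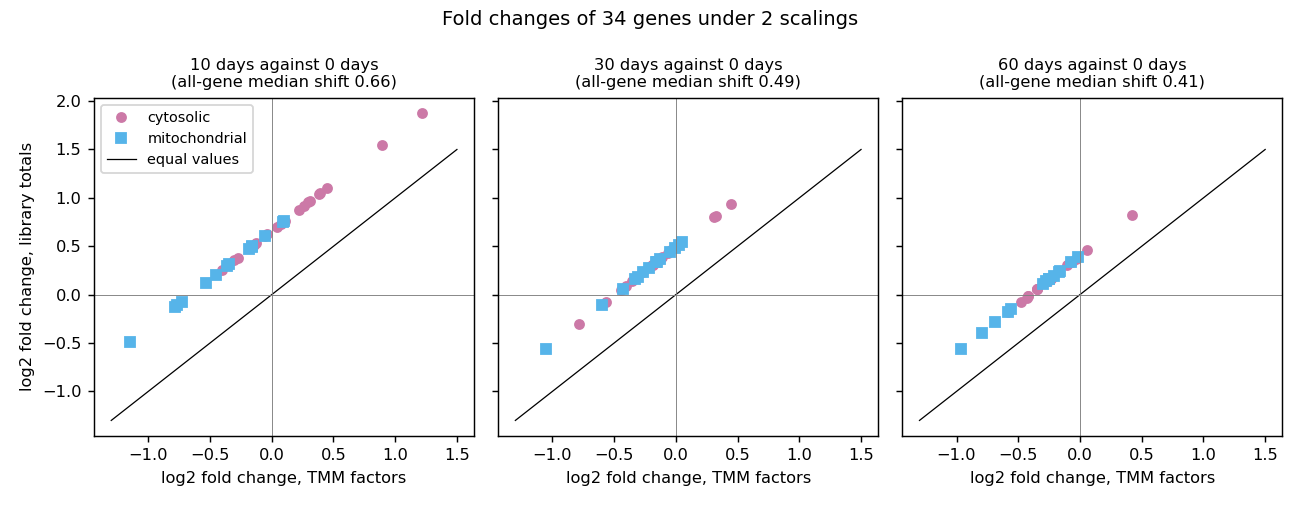
Log2 fold change against 0 days with library totals (vertical axis) against that with TMM (horizontal axis) for 34 genes, cytosolic (circles) and mitochondrial (squares), at 10, 30 and 60 days; the line marks equal values. The points lie above the line by about the all-gene median shift of 0.66, 0.49 and 0.41.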

How the data were processed

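Messenger RNA of 16 libraries (4 per time) was read from 1 table of the whole series. The authors deposited estimated counts per gene (233 of the 17147 genes held a value that was not whole), and these expected counts were rounded to whole numbers here. Per the submitters' processing notes, bcl2fastq 1.8.4, FastQC, TopHat2 2.0.9, Bowtie2 2.1.0.0, Cufflinks, Cuffdiff 2.1.1 and the build rn5 were named, without their roles. The annotation and the strand setting of the counting are not given in the sources used here, so reads of overlapping or antisense genes and of near-identical copies may have been shared or lost.

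Genes were filtered with edgeR's filterByExpr by group, which left 11658 tested genes, with 5489 untested, of which 2648 had no count in any library. TMM factors, 1 mean per group over all 16 libraries (12 residual degrees of freedom) and the robust quasi-likelihood test of edgeR 4.0.16 in R 4.3.3 gave fold changes, and p-values were adjusted by Benjamini-Hochberg over all tested genes, with a call at an adjusted p under 0.05. Standard errors were computed as |log2 fold change|/√F. CPM values carry the TMM factors. Totals of 17184282 to 39903266 counts put the floor of 3 counts at 0.0752 to 0.175 CPM, and every synthetase lay above it in every library. Floors cover counting error only. The fit was tested on simulated data with known changes. Those changes covered few genes and were balanced between up and down, so that test cannot tell which scaling is right for these data.

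Settings changed 1 at a time were the scaling (RLE, upper-quartile, or library totals), the tool (DESeq2 1.42.0, or voom from limma 3.58.1), the filter (none, or a mean CPM of 1 or more), the libraries fitted (the 2 groups compared alone, or 1 library left out), a block for the replicate number, a covariate for the title letter, and the threshold (0.01). Replicate numbers are those of the table's column names. They do not pair libraries: the deviations of same-numbered libraries from their group means correlated by 0.0013 on average over 24 pairs (-0.24 to 0.22).

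The synthetases given in full were the 3 highest and 2 lowest fold changes of each compartment at each time, Gars, Kars and Qars, and the pairs with the 3 largest and 2 smallest ratio changes at 10 days. Partner genes were named where they were called and had the highest or lowest fold change of their list. The genes and lists were chosen with earlier results of these data known. Promoters came from RefSeq on GRCr8, were searched with python 3.11.15 by gene symbol, and were matched for 31 of the 35 genes. A few single-gene values and 1 sequence are not reported here; those genes stay in the fit and in the counts. Figures were drawn with matplotlib 3.10.9.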

Additional observations from a re-analysis of the deposited data

Results flagged for a closer look

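Of 140 groups of 4 libraries (35 genes at 4 times), 12 (8.57%) held 1 library whose gap to the nearest other, as a share of the range, exceeded Dixon's limit, which chance alone passes in about 5% of groups. Levels are CPM with TMM scaling. For Aars2, replicate 4 at 10 days was at 16.07, below the other 3 at 21.33 to 22.08. Cars2 stood at 17.56 in 60-day replicate 4, above the range of 13.56 to 14.15 in the rest of its group. The 0-day replicate 4 value of Farsa, 36.36, lay below its group's other values of 39.66 to 40.32. For Farsa, replicate 2 at 10 days was at 39.26, above the other 3 at 34.33 to 34.9. Farsa stood at 37.35 in 60-day replicate 1, above the range of 31.38 to 32.25 in the rest of its group. The 0-day replicate 1 value of Gars, 100.3, lay below its group's other values of 104.1 to 104.6. For Kars, replicate 1 at 60 days was at 347.8, above the other 3 at 228.7 to 245.1. Lars stood at 83.65 in 60-day replicate 4, below the range of 98.77 to 100.5 in the rest of its group. The 10-day replicate 4 value of Vars, 131.7, lay below its group's other values of 162.8 to 166.4. For Vars2, replicate 4 at 10 days was at 21.12, below the other 3 at 24.62 to 25.04. Wars stood at 90.91 in 10-day replicate 2, above the range of 72.04 to 74.2 in the rest of its group. The 0-day replicate 4 value of Wars2, 11.35, lay above its group's other values of 8.031 to 8.473. Replicate 4 at 10 days was the low one for Aars2, Vars and Vars2.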

How the results depend on the processing

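The scaling between libraries changed most results, and the cause was not tested. With library totals 58 of 102 log2 fold changes against 0 days (34 genes at 3 times) were above 0 instead of below and were called with at least 1 of both scalings: at 10 days Aars 0.38, Farsa 0.53, Gars 0.62, Hars2 0.31, Lars2 0.60, Nars2 0.12, Pars2 0.48, Qars 0.60, Rars 0.35, Sars 0.26, Tars2 0.30, Vars2 0.50, Wars2 0.50, Yars 0.52 and Yars2 0.20; at 30 days Aars 0.0897, Cars 0.43, Cars2 0.28, Dars 0.31, Ears2 0.33, Eprs 0.33, Fars2 0.44, Farsa 0.38, Gars 0.23, Hars2 0.23, Iars 0.14, Kars 0.36, Lars 0.38, Lars2 0.37, Mars 0.0551, Nars 0.46, Pars2 0.33, Qars 0.28, Rars 0.31, Sars2 0.061, Tars 0.50, Tars2 0.48, Yars 0.0483 and Yars2 0.16; at 60 days Cars 0.15, Cars2 0.14, Dars 0.17, Eprs 0.14, Fars2 0.25, Farsa 0.17, Gars 0.062, Hars2 0.11, Kars 0.34, Lars 0.0578, Nars 0.19, Qars 0.0593, Rars 0.30, Rars2 0.34, Tars 0.13, Tars2 0.16, Vars2 0.39, Wars 0.37 and Yars 0.18. The medians became 0.76 (cytosolic) and 0.31 (mitochondrial) at 10 days, 0.32 and 0.32 at 30 days, and 0.14 and 0.14 at 60 days. Counts of cytosolic genes called higher became 20, 14 and 7 at the 3 times and of those called lower 0, 1 and 0. For mitochondrial genes they became 9, 10 and 3 higher and 1, 1 and 2 lower. From 10 to 30 days 2 mitochondrial genes were lower. From 30 to 60 days 0 cytosolic genes were higher and 8 lower, and from 10 to 60 days 0 cytosolic genes were higher and 8 mitochondrial genes lower. Of all genes called with library totals, 27.6% were higher from 10 to 30 days, 26.27% from 30 to 60 days and 27.95% from 10 to 60 days. Of all called genes, 53.1%, 52.2% and 50.7% were higher with TMM at the 3 times, 87.4%, 84.1% and 82.7% with library totals, and 57.6%, 62.2% and 63.6% with upper-quartile factors.

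Upper-quartile factors gave medians of -0.0517 (cytosolic) and -0.0479 (mitochondrial) at 30 days and -0.12 and -0.13 at 60 days, 2 cytosolic genes higher and 9 lower at 60 days, 1 cytosolic gene higher from 10 to 30 days, and 6 mitochondrial genes higher from 10 to 60 days. With only the 2 groups compared, where fewer libraries set the spread, 1 mitochondrial gene was lower from 10 to 30 days, and 0 cytosolic genes were higher and 1 mitochondrial gene lower from 30 to 60 days. With the title letter as a covariate 6 cytosolic genes were lower from 30 to 60 days. At an adjusted p under 0.01, 9 cytosolic genes were lower at 60 days and 0 higher from 30 to 60 days.

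Without 1 library the count of cytosolic genes lower at 60 days was 9 to 16, of cytosolic genes higher from 30 to 60 days 0 to 1, and of cytosolic genes lower from 30 to 60 days 3 to 5. The other counts stayed within 1.5 times of their value. With a replicate block the calls of Cars2 at 60 days (-0.27, adjusted p = 0.0690) and Dars at 30 days (-0.19, adjusted p = 0.0555) were lost and Sars2 at 60 days (-0.25, adjusted p = 0.0427) was gained; it changed no other call against 0 days. Not every same-numbered pair of libraries correlated positively, and the numbers are only names.

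The 35 genes were all above the floor of 3 counts in every library. DESeq2, limma-voom, RLE factors and the 2 other filters left each count of calls within 1.5 times of its value.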

Other observations

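The cytosolic elongation factors, which bring charged tRNA to the ribosome and move it on, went in both directions with TMM. Of 6 genes 3 were called higher and 2 lower at 10 days, 3 and 2 at 30 days, and 1 and 2 at 60 days, beside 33.3% of all genes called higher and 29.4% lower, 33.7% and 30.9%, and 29.9% and 29.1%. With library totals 5 were called higher and 0 lower, 4 and 0, and 4 and 2. With that scaling 87.4%, 84.1% and 82.7% of all called genes were higher. Eef1a2, the form known for adult muscle and nerve, stood at 2725, 2609.9, 2638 and 2341 at 0 days, 2039, 1864, 1760.5 and 1557 at 10 days, 1564, 1769.6, 2056 and 1796 at 30 days, and 2275, 1287, 1299 and 1279.6 at 60 days (CPM), every operated library below every 0-day library, with log2 fold changes of -0.51 ± 0.16, -0.52 ± 0.16 and -0.75 ± 0.16 (0.14, -0.03 and -0.35 with library totals). Eef1a1, the form of most other tissues, stood at 612, 648, 684 and 691 at 0 days, 4474, 5691, 4968 and 5539.5 at 10 days, 6026, 3689, 4127 and 4997 at 30 days, and 1999.6, 1742, 1942 and 2293 at 60 days (CPM), every operated library above every 0-day library. Its log2 fold changes were 2.97 ± 0.15, 2.84 ± 0.15 and 1.60 ± 0.14 (3.63, 3.34 and 2.01 with library totals). Eef1a1 has near-identical copies among which reads may be split, so its level is uncertain. The Eef1a1 to Eef1a2 ratio within a library, on which scaling has no bearing, was 0.225 to 0.295 at 0 days, 2.19 to 3.56 at 10 days, 2.01 to 3.85 at 30 days and 0.879 to 1.79 at 60 days. Eef2, which moves the ribosome along, was not called at 10 days (0.21 ± 0.11) and was called lower at 30 and 60 days (-0.57 ± 0.11 and -0.82 ± 0.11; 0.86, -0.08 and -0.42 with library totals at the 3 times).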
